A study of Homo sapiens with 9 samples.

Results

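The axon guidance ligands and receptors are secreted and membrane proteins that steer growing axons and migrating cells. Members were the gene probes of the array that detect a RefSeq mRNA of a gene whose symbol starts like an ephrin (EFNA, EFNB), an Eph receptor (EPHA, EPHB), a semaphorin of classes 3 to 7, a plexin (PLXN) or an UNC5 receptor, or that is NRP1 or NRP2, NTN1 to NTN5, ROBO1 to ROBO4, SLIT1 to SLIT3 or DCC. The rule found 99 probes of 71 genes among 42405 gene probes, namely 8 ephrins, 14 Eph receptors, 20 semaphorins, 11 plexins and neuropilins, 11 genes named as netrins or their receptors, and 7 Slits and Robos. Because the rule goes by symbol it also took UNC50 and UNC5CL, which are not netrin receptors, and the counts of calls are also given without them. In all, 49 of the 71 genes were bright enough to be tested, 47 of 69 without UNC50 and UNC5CL.

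A2780 is an established human ovarian carcinoma cell line, grown here in RPMI medium with fetal bovine serum. DIG-MSK is an analogue of the antibiotic mithramycin A, a drug that binds GC-rich DNA in the minor groove. Cultures without drug (0 nM), with 8 nM and with 80 nM of DIG-MSK were compared, the drug being left on for 24 h, with 3 independent biological replicates of each, and the RNA of each was labeled with Cy3 and hybridized to an Agilent array of its own, 9 arrays in all. The groups differed in the drug alone as far as the labels say, and all came from this single line. The labels of the control arrays name no vehicle.

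A guidance cue is a ligand, secreted or held on a neighbouring cell, that binds a receptor on a growing or moving cell. Ephrins sit on the cell surface and bind Eph receptor tyrosine kinases, with signals passing both ways across the contact. Semaphorins bind plexins, and most of the secreted class 3 semaphorins need a neuropilin as well. Netrins attract through DCC and neogenin and repel through UNC5 receptors, whereas Slit proteins repel through Robo receptors. Several of these genes, such as SEMA3B, SEMA3F and SLIT2, are also known as tumor suppressor candidates, and Eph receptors are commonly altered in carcinomas.

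A level below is a log2 processed spot intensity from which the array's own 75th percentile has been subtracted, so that a level of 0 is the brightness of that percentile. Levels of different probes are not compared as amounts of RNA. Between 24814 (8 nM replicate 2) and 27151 probes per array were well above background, arrays of one group correlated at 0.9891 or more across genes, and with 3 arrays in a group it is their number that limits precision. The untreated and 8 nM arrays shared slide 1 and one scan, whereas the 80 nM arrays lay on slide 2 with a scan of their own, so what 80 nM did and what differed between the slides cannot be told apart, whereas the comparison of 8 nM with untreated lies within slide 1. Of 11 ovarian epithelial or carcinoma markers, WT1, CDH1 and MUC16 were above background on none of the untreated or 80 nM arrays and PAX8 on 1 of each. EPCAM, KRT7, KRT8, KRT18, KRT19 and ESR1 were well above it on all 9. CLDN4 was so on no untreated array and on all 3 at 80 nM. Of the mesenchymal markers, VIM was very bright (untreated level 8.21), CDH2 and ZEB1 were above background on all 9 arrays, and FN1 was on none. Of 12 neuron markers, MAP2, TUBB3, SNAP25, SYP, NEFL and INA were above background on all 3 untreated arrays, ELAVL3 on 1, and RBFOX3, STMN2, ELAVL4, NEFM and DCX on none. In RNA from whole cultures, fewer cells of a kind and less RNA per cell cannot be told apart.

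Untreated A2780 cells held members of every family. Of the 71 genes, 44 were well above background on all 3 untreated arrays, and 36 were so on all 9 arrays. These 44 comprised 6 ephrins, 9 Eph receptors, 14 semaphorins, 7 plexins or neuropilins, 3 genes of the netrin group (NTN5, UNC5B and UNC50) and all 5 Slits and Robos that were tested. In the netrin group DCC, NTN3, NTN4, UNC5C and UNC5D were not tested, and NTN1 was above background on 1 of the 3 untreated arrays. The other genes not tested were EFNA2, EFNA5, EPHA1, EPHA4, EPHA6, EPHB1, SEMA3C, SEMA3E, SEMA5A, SEMA5B, SEMA6D, SEMA7A, NRP2, PLXNA2, PLXNC1, ROBO4 and SLIT1. Of these 22 genes, 18 were above background on no array, and EFNA2 came nearest, being above it on 4.

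A gene was called higher or lower at an adjusted p under 0.05 (limma, Benjamini-Hochberg over the 21832 genes tested) with a change of at least 1.5-fold or at most 0.67-fold. At 8 nM DIG-MSK, 7 of the 49 tested members were called higher, or 14.3%, against 3.72% of all genes tested. None was called lower, against 1.47% of all genes, although 5 were lower at an unadjusted p under 0.05 (EFNA3, EPHA5, PLXNA1, SLIT3 and UNC5B), and EPHA5 alone met the methods' rule of an unadjusted p with the same fold limits. At 80 nM, 12 members were called higher (24.5%, against 18.4% of all genes) and 12 lower (24.5%, against 16.1%). Without UNC50 and UNC5CL, 7 of 47 were higher and 0 lower at 8 nM, and 11 were higher and 12 lower at 80 nM. Between the concentrations, 10 members were higher at 80 nM than at 8 nM (18.7% of all genes were) and 14 lower (14.1% of all genes), or 9 and 14 of the 47. The median log2 change of the tested members was 0.06 at 8 nM and 0.21 at 80 nM, where all genes had medians of -0.06 and 0.08. Both concentrations were compared with the same 3 untreated arrays, so their values are given side by side. A gene was tested if it was well above background on every array of 1 or more groups. NTN1 met this only at 8 nM, and EPHA5, PLXNA4, UNC5A and UNC5CL only at 80 nM. The rule itself thus favours rises of these genes there, and the counts of members called higher include some of them.

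**Figure D1:**
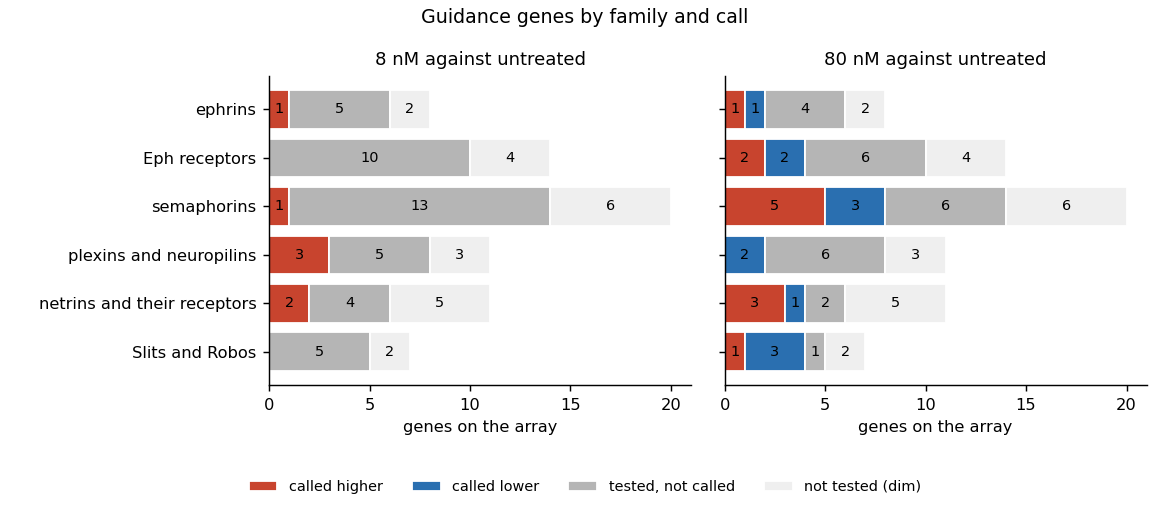
Number of genes on the array in each family, at 8 nM (left) and 80 nM (right) against untreated; bar segments give genes called higher, called lower, tested but not called, and not tested for want of signal. At 8 nM calls were all to higher levels and lay in 4 families. At 80 nM all 6 families held calls, with 5 semaphorins higher and 3 lower and 3 of 5 Slits and Robos lower. Of all genes tested, 3.72% were called higher and 1.47% lower at 8 nM, and 18.4% higher and 16.1% lower at 80 nM.

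The members called at each concentration fell into distinct lists. EFNB1, NTN5 and SEMA3B were called higher at both. PLXNB1, PLXNB2 and PLXNB3 were called higher at 8 nM only by this rule, and NTN1 was called higher at 8 nM and lower at 80 nM. Another 9 members were called higher at 80 nM alone (EPHA3, EPHA5, ROBO3, SEMA3A, SEMA4F, SEMA6A, SEMA6B, UNC50 and UNC5A). A further 11 were called lower at 80 nM alone (EFNB2, EPHA7, EPHB6, NRP1, PLXNA1, ROBO1, ROBO2, SEMA3G, SEMA4C, SEMA4D and SLIT2). The remaining 22 were called at neither concentration.

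**Figure D2:**
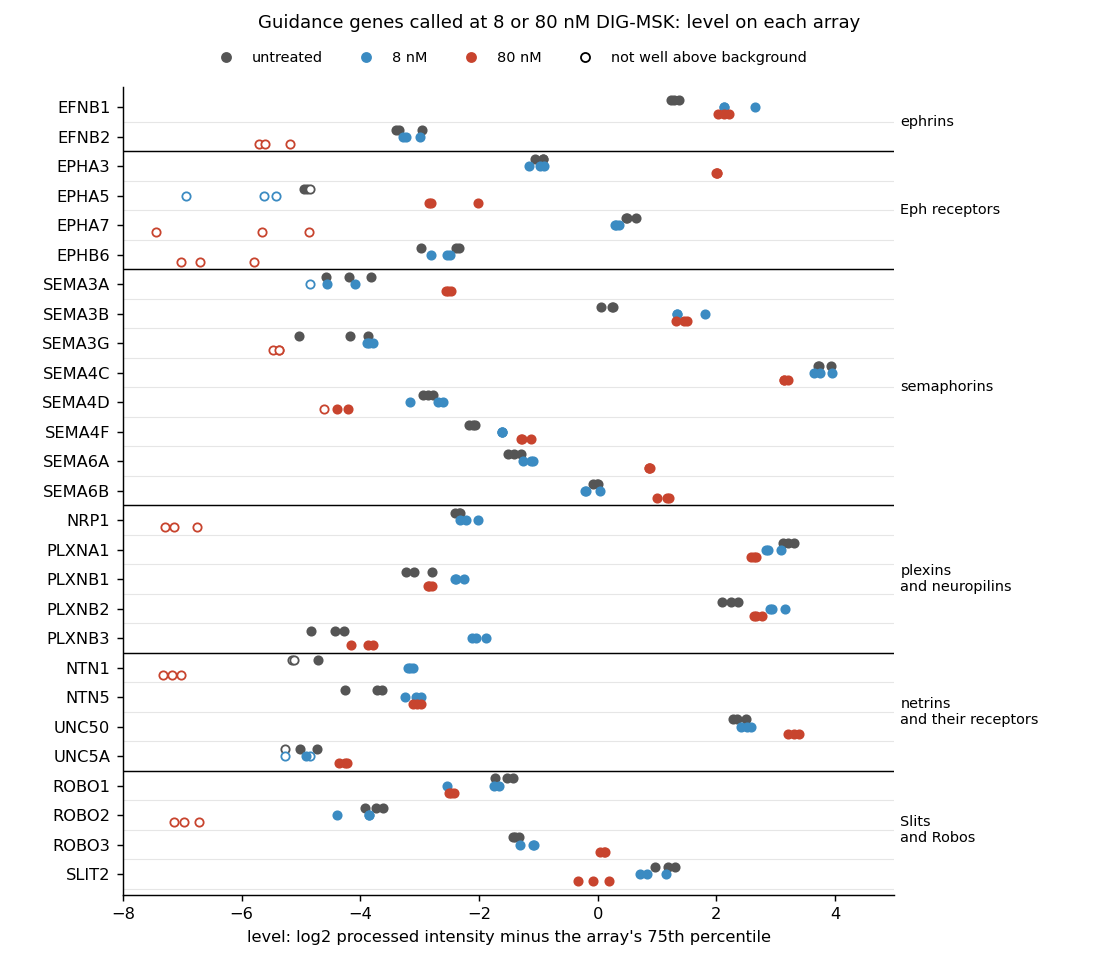
Level of the 27 members called at 8 or 80 nM against untreated on each of the 9 arrays (x axis, log2 processed intensity minus the array's 75th percentile), grouped by family; colours give the group and open circles mark arrays on which the probe was not well above background. EPHA7, EPHB6, NRP1, ROBO2 and EFNB2 lose their signal on all 3 arrays at 80 nM, EPHA3 and SEMA6A stand well to the right at 80 nM alone, and PLXNB3 and NTN1 are brightest at 8 nM.

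DIG-MSK belongs to a group of drugs that bind GC-rich DNA, so the promoters of members with large and different changes are shown. Each is the 250 bases before the RefSeq transcription start (GRCh38.p14), the farthest upstream start where a gene has several, written 5′ to 3′ along the gene's strand. Capitals mark GC boxes, the letters GGGCGG or their reverse complement CCGCCC, a motif bound by Sp1. EPHA7 (chr6:93419560-93419809, minus strand), EFNB2 (chr13:106535663-106535912, minus strand) and ROBO2 (chr3:76310630-76310879, plus strand) fell at 80 nM, and hold 4, 3 and 0 boxes. At other starts listed for the same genes, EPHA7 has 1 box at each of 2 and ROBO2 has 1. EPHA3 (chr3:89107371-89107620, plus strand) rose at 80 nM and holds 0. EFNB1 (chrX:68828771-68829020, plus strand) rose at both concentrations and holds 1, and PLXNB3 (chrX:153763999-153764248, plus strand) rose at 8 nM and holds 2 that overlap.
EPHA7: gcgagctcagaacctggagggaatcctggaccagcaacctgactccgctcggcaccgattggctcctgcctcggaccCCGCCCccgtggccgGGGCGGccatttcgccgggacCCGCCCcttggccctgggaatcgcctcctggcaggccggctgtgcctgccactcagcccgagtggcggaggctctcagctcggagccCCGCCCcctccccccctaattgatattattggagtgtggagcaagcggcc
EFNB2: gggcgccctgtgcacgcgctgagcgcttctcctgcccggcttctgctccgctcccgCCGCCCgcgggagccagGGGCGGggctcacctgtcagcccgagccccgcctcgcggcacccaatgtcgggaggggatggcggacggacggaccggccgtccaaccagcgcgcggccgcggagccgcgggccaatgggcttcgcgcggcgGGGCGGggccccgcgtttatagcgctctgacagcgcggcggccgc
ROBO2: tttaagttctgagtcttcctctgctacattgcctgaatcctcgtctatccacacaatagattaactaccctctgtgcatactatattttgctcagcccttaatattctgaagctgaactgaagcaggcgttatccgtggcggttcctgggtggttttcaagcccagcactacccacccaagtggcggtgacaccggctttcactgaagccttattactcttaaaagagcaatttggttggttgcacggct
EPHA3: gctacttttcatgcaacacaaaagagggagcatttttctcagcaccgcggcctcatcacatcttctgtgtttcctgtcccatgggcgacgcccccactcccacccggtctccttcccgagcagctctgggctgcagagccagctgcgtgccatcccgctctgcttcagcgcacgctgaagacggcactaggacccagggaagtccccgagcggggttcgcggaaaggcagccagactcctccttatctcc
EFNB1: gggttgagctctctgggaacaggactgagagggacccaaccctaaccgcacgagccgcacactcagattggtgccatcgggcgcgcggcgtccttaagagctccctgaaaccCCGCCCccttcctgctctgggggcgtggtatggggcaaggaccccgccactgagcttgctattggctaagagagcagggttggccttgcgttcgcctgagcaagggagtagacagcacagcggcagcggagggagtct
PLXNB3: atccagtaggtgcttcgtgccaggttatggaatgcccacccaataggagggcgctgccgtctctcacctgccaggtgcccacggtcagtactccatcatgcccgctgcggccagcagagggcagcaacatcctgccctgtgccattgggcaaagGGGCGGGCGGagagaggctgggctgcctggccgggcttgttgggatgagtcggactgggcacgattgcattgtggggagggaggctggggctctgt

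GC boxes were common before members whatever their change. A table of RefSeq promoters held 62 promoters of 41 of the 49 tested members. At least 1 GC box on either strand, overlaps counted, lay in the 250 upstream bases of 74.2% of these 62 and of 42.6% of the 35114 promoters of the table. Only 11118 of the 21832 genes tested had an entry, and for them it was 60.8% of 15973 promoters. For members higher at 80 nM the share was 81.2% (13 of 16 promoters, from 9 genes). For those lower it was 78.6% (11 of 14, from 10 genes), and for those not called 68.8% (22 of 32, from 22 genes). Several starts of 1 gene count separately here. EFNB3, EPHA10, NRP1, NTN1, NTN3, SEMA3A, SEMA6A, SEMA6B, UNC5B and UNC5D were without an entry. A match of letters is a description of the sequence and not a binding site.

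Of the ephrins, the B-type members, which span the membrane and signal into their own cell, held every call. EFNB1 (NM_004429) read 1.23, 1.36 and 1.28 on the untreated arrays, 2.13, 2.65 and 2.12 at 8 nM, and 2.03, 2.14 and 2.21 at 80 nM. All treated arrays lay above all untreated ones. In log2 units EFNB1 rose by 1.01 at 8 nM (SE, the standard error, 0.14; adjusted p = 0.0033) and 0.83 at 80 nM (SE 0.14, adjusted p = 0.0011), and the concentrations did not differ beyond the test (-0.18 at 80 nM minus 8 nM, SE 0.14, adjusted p = 0.32). EFNB2 (NM_004093), a ligand of EphB4 in arteries and other tissues, went the other way at 80 nM. It read -2.96, -3.40 and -3.34 untreated and between -3.27 and -3.0 at 8 nM, where the groups overlapped, but -5.71, -5.18 and -5.61 at 80 nM, where no array had it well above background. Expression of EFNB2 was thus at least 4.0-fold lower at 80 nM than untreated (adjusted p = 1.0e-05). This and the other bounds hold for the processed intensity, and with normexp background correction, which adds an offset to every spot, the log2 change of EFNB2 was -0.72 and still called. None of the A-type ephrins, which are tethered by a lipid anchor, was called. EFNA1 had log2 changes of 0.54 at 8 nM and 0.43 at 80 nM, EFNB3 of 0.25 and 0.39, and EFNA4 of -0.40 at 80 nM, each with an adjusted p under 0.05 but short of the fold limit. EFNA3 changed by -0.41 and -0.03, neither past the test.

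The 10 tested Eph receptors held calls in both directions at 80 nM, 2 higher and 2 lower (18.4% and 16.1% of all genes were). EPHA7 (NM_004440), a receptor for A-type ephrins, read 0.48, 0.65 and 0.49 on the untreated arrays and 0.30, 0.36 and 0.31 at 8 nM. At 80 nM the same probe read -7.45, -4.87 and -5.66 and was not above background on any array, so expression was at least 50.9-fold lower (adjusted p = 1.6e-05), and with normexp correction EPHA7 changed by -3.53. Its second probe, on the same transcript, gave the same direction and was called lower too (adjusted p = 1.1e-07). EPHA3 (NM_005233), another receptor of A-type ephrins, did the opposite. It read -1.06, -0.92 and -0.92 untreated, -0.97, -1.17 and -0.90 at 8 nM, and 2.01, 1.99 and 2.02 at 80 nM. The 80 nM arrays stood far above the other 6, which overlapped, and the log2 change was 2.97 (SE 0.09, adjusted p = 5.4e-08), a rise of 7.83-fold. EPHA5 (NM_004439) was dim without the drug (-4.89, -4.96 and -4.85, above background on 1 array) and at 8 nM (-5.42, -6.94 and -5.62, on none), and rose to -2.80, -2.01 and -2.85 at 80 nM. Against untreated the log2 change of EPHA5 was 2.35 (SE 0.38, adjusted p = 0.00087), and against 8 nM the gene was at least 6.53-fold higher (adjusted p = 0.00011). With normexp correction these changes of EPHA5 were 1.08 and 1.18, both called.

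EPHB6 (NM_004445), an Eph receptor whose kinase domain is inactive, also lost its signal at 80 nM. Its levels were -2.97, -2.34 and -2.39 untreated, -2.80, -2.54 and -2.49 at 8 nM, and -5.79, -6.70 and -7.02 at 80 nM, where no array was above background, at least 6.75-fold lower (adjusted p = 1.2e-05). The log2 change of EPHB6 was -1.16 with normexp correction. The other measured EphB receptors, partners of EFNB1 and EFNB2, were not called against untreated: EPHB2, EPHB3 and EPHB4 had log2 changes of -0.18, -0.25 and 0.21 at 80 nM. EPHB3 read -0.51, 0.14 and -0.29 at 8 nM and -1.02, -1.09 and -1.01 at 80 nM, and was called lower at 80 nM than at 8 nM (-0.82, SE 0.16, adjusted p = 0.0024). The same comparison called EPHA10, whose kinase is likewise inactive, lower (-0.88, SE 0.18, adjusted p = 0.0031). EPHA2, often abundant in epithelial tumors, changed by 0.48 at the lower concentration (adjusted p = 0.061) and by 0.20 at the higher (adjusted p = 0.27), and EPHA8 by 0.06 and -0.14. No Eph receptor was called at 8 nM by limma, where 3 were higher and 1 lower at an unadjusted p under 0.05 (EPHA2, EPHB3, EPHB4 and EPHA5).

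**Figure D3:**
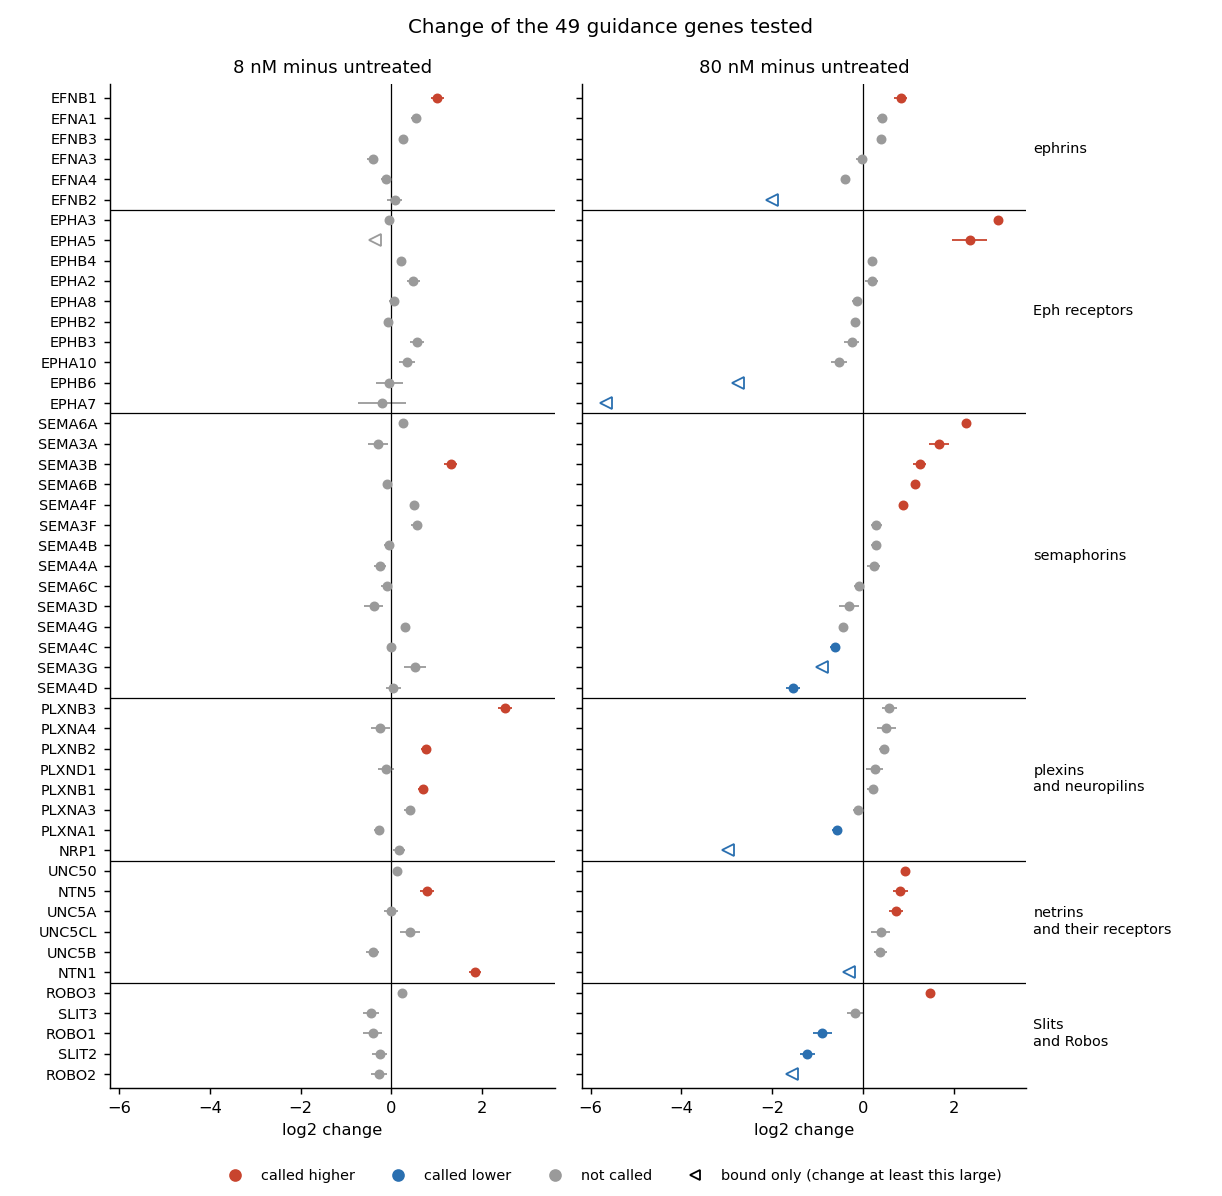
Log2 change of the 49 tested members at 8 nM (left) and 80 nM (right) against untreated, by family and in the order of the change at 80 nM; points are limma estimates with their standard error, and open triangles are bounds for genes not above background on any array of one group. Changes spread far more widely at 80 nM than at 8 nM, from a fall of at least 50.9-fold for EPHA7 to a log2 change of 2.97 for EPHA3.

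Among the secreted class 3 semaphorins, SEMA3B and SEMA3A rose and SEMA3G fell. SEMA3B (NM_004636), a repellent that binds neuropilins and a tumor suppressor candidate, read 0.24, 0.25 and 0.06 untreated, 1.34, 1.80 and 1.33 at 8 nM, and 1.32, 1.46 and 1.51 at 80 nM. Every treated array was above every untreated one and the treated groups overlapped. The log2 changes of SEMA3B were 1.30 at 8 nM (SE 0.14, adjusted p = 0.00083) and 1.24 at 80 nM (SE 0.14, adjusted p = 9.5e-05). SEMA3A (NM_006080), the founding collapsin that signals through neuropilin 1, rose at 80 nM alone: from -3.82, -4.20 and -4.57 untreated and -4.09, -4.84 and -4.56 at 8 nM to -2.55, -2.53 and -2.47, a log2 change of 1.68 (SE 0.22, adjusted p = 0.00026) that was 0.91 with normexp correction. SEMA3G read -5.04, -4.18 and -3.88 untreated and was not above background on any array at 80 nM, at least 1.88-fold lower (adjusted p = 0.00655), and at least 2.70-fold lower than at 8 nM. With normexp correction the change of SEMA3G against untreated was -0.17 and was not called, nor was it with the authors' values (-0.31). SEMA3F changed by 0.55 at 8 nM and 0.29 at 80 nM, below the fold limit in both, and SEMA3D by -0.39 and -0.32.

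Of the membrane-bound semaphorins, SEMA6A, SEMA6B and SEMA4F rose at 80 nM and SEMA4C and SEMA4D fell. SEMA6A (NM_020796), a transmembrane ligand of A-type plexins, read -1.50, -1.30 and -1.41 untreated, -1.12, -1.26 and -1.09 at 8 nM, and 0.86, 0.87 and 0.87 at 80 nM. This separation gave a log2 change of 2.27 (SE 0.08, adjusted p = 1.6e-07), or 4.82-fold. SEMA6B rose by 1.14 (SE 0.10, adjusted p = 2.0e-05) on its brighter probe, from -0.07, 0.01 and -0.01 to 0.99, 1.16 and 1.20, but its other probe gave 0.25 (adjusted p = 0.14). SEMA6C changed by -0.11 and -0.09. Of class 4, SEMA4F rose at 80 nM by 0.88 (SE 0.08, adjusted p = 2.3e-05), and was also higher at 8 nM by 0.50 (adjusted p = 0.0044), under the fold limit. Its other probe gave 0.10 at 80 nM (adjusted p = 0.46), and with the mean of both probes the change of SEMA4F was 0.49.

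SEMA4D, the ligand of plexin B1, read -2.86, -2.94 and -2.77 untreated and -4.21, -4.39 and -4.61 at 80 nM, where 2 of 3 arrays were above background, a log2 change of -1.55 (SE 0.16, adjusted p = 6.6e-05). It was -0.66 for SEMA4D with normexp correction, and still called. A second SEMA4D probe, for another transcript, gave -0.83 and did not pass the test (adjusted p = 0.28). SEMA4C, a ligand of plexin B2, was among the bright members and fell a little, from 3.94, 3.71 and 3.72 to 3.15, 3.15 and 3.21 at 80 nM (-0.62, SE 0.10, adjusted p = 0.00089). Without untreated replicate 1 its change was -0.55, short of the fold limit. SEMA4G was called lower at 80 nM than at 8 nM (-0.75, SE 0.09, adjusted p = 0.00020), and its change against untreated was -0.45. The 2 probes of SEMA4B disagreed in sign at 80 nM against 8 nM: the brighter gave 0.33 and was not called, while the other gave -0.63 and was called lower (adjusted p = 0.040). SEMA4A changed by -0.25 and 0.23.

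The B-type plexins, of which B1 and B2 are receptors of class 4 semaphorins, held 3 of the 7 calls at 8 nM. Of all genes tested, 3.72% were called higher at 8 nM. PLXNB3 (NM_001163257) read -4.83, -4.28 and -4.43 untreated, -2.12, -2.04 and -1.88 at 8 nM, and -4.15, -3.79 and -3.86 at 80 nM. The 8 nM arrays lay far above the other 6, and the log2 change was 2.50 at 8 nM (SE 0.16, adjusted p = 7.0e-05), or 5.66-fold. With normexp correction the rise of PLXNB3 was smaller, 1.09, and still called. At 80 nM it was 0.58 by the processed intensity (adjusted p = 0.012), just short of the fold limit, and PLXNB3 was lower at 80 nM than at 8 nM by a tested difference of -1.92 (SE 0.16, adjusted p = 1.9e-05; -0.96 with normexp correction). PLXNB2 read 2.36, 2.25 and 2.10 untreated, 2.90, 3.16 and 2.94 at 8 nM, and 2.68, 2.63 and 2.76 at 80 nM. The rise of PLXNB2 at 8 nM was 0.76 (SE 0.10, adjusted p = 0.0028) and its change at 80 nM 0.45 (adjusted p = 0.0054), and its other probe was called higher at 8 nM as well (0.60, adjusted p = 0.0089). PLXNB1 rose at 8 nM by 0.69 (SE 0.12, adjusted p = 0.0072), from -3.10, -3.23 and -2.79 to -2.40, -2.40 and -2.25, and stood at -2.78, -2.84 and -2.86 at 80 nM. The differences of PLXNB1 and PLXNB2 between the concentrations, -0.48 and -0.31, stayed under the fold limit.

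Neuropilins and A-type plexins together receive class 3 semaphorins, and a member of each, NRP1 and PLXNA1, fell at 80 nM. NRP1 (NM_001024629), which also binds VEGF, read -2.34, -2.32 and -2.40 untreated and -2.32, -2.02 and -2.22 at 8 nM. On the 80 nM arrays it read -6.75, -7.29 and -7.14 and was never above background, so it was at least 7.82-fold lower (adjusted p = 5.4e-08; log2 change of NRP1 with normexp correction -1.80), and the probe of another NRP1 transcript was called lower too (adjusted p = 4.5e-08). PLXNA1, a bright member, fell from 3.30, 3.13 and 3.21 to 2.59, 2.67 and 2.64 (-0.58, SE 0.09, adjusted p = 0.00073). That change lay at the edge of the fold limit and was -0.54 without untreated replicate 1 and -0.56 without 80 nM replicate 1, neither of which was called. PLXNA3, PLXNA4 and PLXND1 had log2 changes of -0.11, 0.52 and 0.25 at 80 nM. PLXNA4 was not above background at 8 nM and was at least 1.13-fold higher at 80 nM (adjusted p = 0.014). It was tested only because of its 80 nM arrays. Its call was lost with normexp correction, quantile normalization, spike-in scaling and the authors' values. In this family no gene was called higher at 80 nM by limma, although PLXNA4, PLXNB2 and PLXNB3 (3 genes) were higher at an unadjusted p under 0.05.

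NTN1 (NM_004822), the secreted netrin of the midline, was the member called in opposite directions. Its levels were -5.16, -4.72 and -5.13 untreated, with 1 array above background, -3.12, -3.19 and -3.17 at 8 nM, with all 3 above, and -7.17, -7.32 and -7.03 at 80 nM, with none above. No groups overlapped. NTN1 rose by 1.84 at 8 nM (SE 0.13, adjusted p = 0.00011), or 3.58-fold. At 80 nM it was at least 4.47-fold lower than at 8 nM (adjusted p = 7.9e-08). Against untreated it was called lower (adjusted p = 2.6e-06). The fold there, 1.25, is not a firm bound, since only 1 untreated array was above background. The call against untreated at 80 nM was lost with normexp background correction (log2 change of NTN1 -0.24) and with the authors' log2 values (-0.49), while the rise of NTN1 at 8 nM was called under every alternative but was as small as 0.65 with normexp correction. NTN5 (NM_145807), a less studied netrin, read -4.26, -3.72 and -3.64 untreated, -3.07, -2.98 and -3.24 at 8 nM, and -3.04, -3.12 and -2.98 at 80 nM. It rose by 0.78 at 8 nM (SE 0.16, adjusted p = 0.016) and 0.82 at 80 nM (SE 0.16, adjusted p = 0.0021). At 8 nM this call was lost when limma was fitted to the untreated and 8 nM arrays alone. This held both without a block and with the replicate number as a block (adjusted p = 0.076 with the block). Without untreated replicate 1 the change of NTN5 at 8 nM was 0.58, just short of the fold limit.

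Of the netrin receptors, UNC5A rose at 80 nM and UNC5B was called higher only against 8 nM. UNC5A was above background on 2 untreated arrays, 1 array at 8 nM and all 3 at 80 nM, with a log2 change at 80 nM of 0.72 (SE 0.16, adjusted p = 0.0039). That of UNC5A was 0.14 and not called with normexp correction. UNC5B, a receptor that is also found on blood vessels, read 0.01, -0.28 and -0.38 untreated, -0.70, -0.35 and -0.84 at 8 nM, and 0.18, 0.13 and 0.17 at 80 nM, a difference of 0.79 between the concentrations (SE 0.14, adjusted p = 0.0016). DCC, the attractive netrin receptor, was above background on none of the 9 arrays, while its relative NEO1 rose by 0.73 at 80 nM (SE 0.20, adjusted p = 0.013). UNC50 rose by 0.92 at 80 nM (adjusted p = 4.5e-05), and UNC5CL changed by 0.39 (adjusted p = 0.15).

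At 80 nM, SLIT2, ROBO1 and ROBO2 fell and ROBO3 rose, 4 calls among 5 tested Slits and Robos. Of all genes tested, 16.1% were called lower and 18.4% higher at 80 nM. SLIT2 (NM_004787), a secreted repellent, read 1.19, 1.30 and 0.96 untreated, 0.71, 1.16 and 0.82 at 8 nM, and 0.19, -0.34 and -0.08 at 80 nM. The untreated and 8 nM arrays overlapped and all 80 nM arrays lay below them, with a log2 change of -1.23 (SE 0.17, adjusted p = 0.00031). ROBO1, its main receptor, changed from -1.43, -1.74 and -1.53 to -2.42, -2.46 and -2.50, or by -0.89 (SE 0.21, adjusted p = 0.0059). ROBO2 (NM_002942) read -3.62, -3.91 and -3.73 untreated and -7.14, -6.71 and -6.97 at 80 nM, above background on none of those arrays and at least 2.97-fold lower (adjusted p = 1.5e-06; log2 change of ROBO2 with normexp correction -0.68), and its other probe was called lower by -1.50 (adjusted p = 0.010). ROBO3 (NM_022370), a divergent Robo that regulates midline crossing, rose from -1.32, -1.44 and -1.39 to 0.11, 0.03 and 0.13 (1.47, SE 0.09, adjusted p = 2.4e-06). SLIT3 changed by -0.45 at 8 nM and -0.17 at 80 nM, neither past the test. At 8 nM no gene of this family was called by limma, and at an unadjusted p under 0.05 ROBO3 was higher and SLIT3 lower.

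Members measured on both sides give the changes that can be ranked. At 80 nM, 37 members were above background on each of the 6 arrays compared, and 10 of these were called higher and 4 lower (PLXNA1, ROBO1, SEMA4C and SLIT2). At 8 nM it was 43 members, of which 6 were called higher and 0 lower. For 80 nM against 8 nM, 36 members were measured on both sides, 6 higher and 6 lower. This filter leaves out genes that fell to background, and the share of all genes called under it was not counted. With a filter on all 9 arrays, 44.9% of the calls at 80 nM against untreated were lower over all genes. Over the members that share was 30.8% (9 higher and 4 lower). Of the 12 members called lower at 80 nM, 7 were above background on no 80 nM array, so that only a bound can be given for them, and for NTN1 no firm one.

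Other genes of the pathway were read from a list of co-receptors and signalling proteins. Of 20 co-receptors and nearby ligands, 11 were tested; 2 were higher at 8 nM and none lower (3.72% and 1.47% of all genes were), and at 80 nM 2 were higher and 6 lower (18.4% and 16.1% of all genes). The 6 were FLRT3, a binding partner of UNC5 and Robo receptors (at least 24.6-fold lower), NTNG1 (at least 15.3-fold) and NTNG2 (log2 change -1.88), netrin-G proteins tethered to the membrane, BOC, a guidance receptor of the hedgehog pathway (at least 13.9-fold), MET (at least 2.18-fold), and RGMA, a ligand of neogenin (at least 1.07-fold). RGMA had risen by 1.24 at 8 nM, as had DRAXIN, an antagonist of netrin signalling, by 1.28. The median log2 change of these 11 genes at 80 nM was -1.88, where all genes tested had 0.08.

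Of 61 signalling genes, 53 were tested, and their median log2 change at 80 nM was -0.07. At 8 nM, SRGAP3, a Robo effector, DPYSL4 and MICAL1 rose (3 of 53, against 3.72% of all genes), and VAV2 fell (1 of 53, against 1.47%). At 80 nM, 7 of the 53 were higher, where 18.4% of all genes were, and 14 lower, where 16.1% were. MICAL1, an oxidase downstream of plexins, rose by 0.76 at 8 nM and 1.89 at 80 nM, and DPYSL2, a collapsin response mediator, by 1.36 at 80 nM, while its relatives DPYSL4 and DPYSL5 fell (log2 change -1.31, and at least 2.47-fold lower). RHOA and RAC1, the small GTPases that most guidance receptors act on, rose by 0.73 and 0.60 at 80 nM, as did cofilin (CFL1), by 0.72. Changes of the co-receptors and signalling genes are from the main fit, and the alternatives, among them spike-in scaling, were not read for them. The exchange factors VAV2, VAV3 and NGEF, which link Eph receptors to these GTPases, fell at 80 nM: the log2 change was -1.81 for VAV2 and -1.61 for NGEF, and VAV3 was at least 67.9-fold lower. FES, a kinase that acts in semaphorin signalling, changed by -4.81, with 1 array above background.

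**Figure D4:**
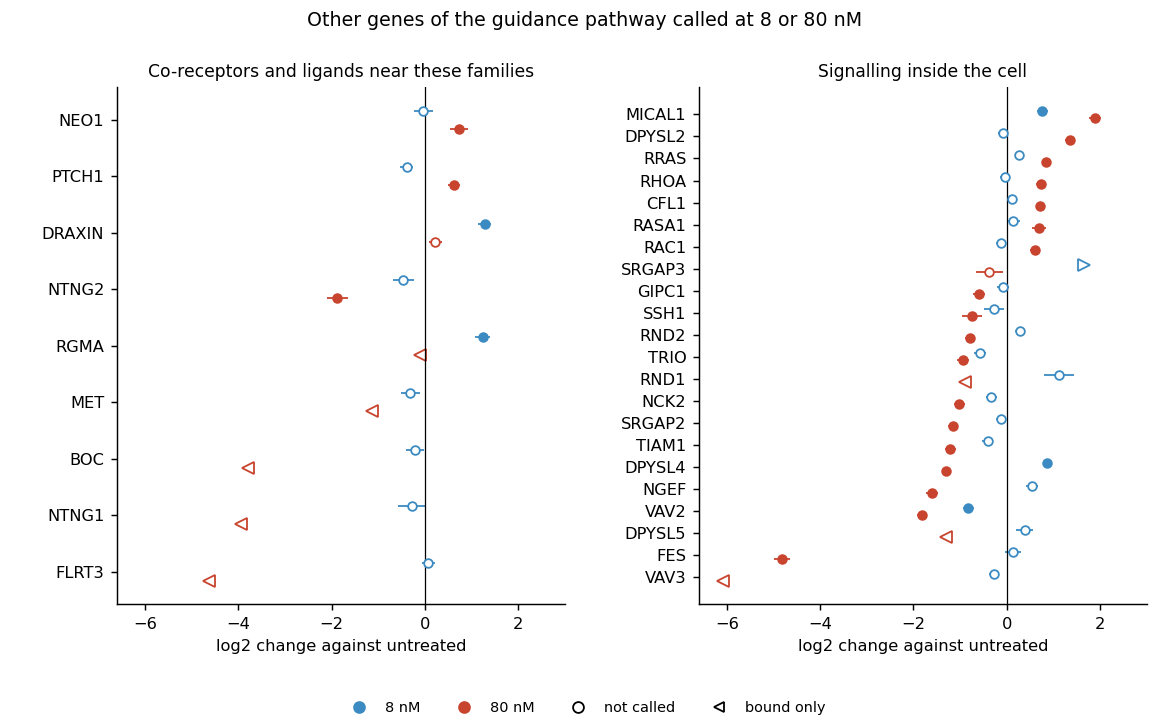
Log2 change against untreated, at 8 nM and 80 nM, of the co-receptors and nearby ligands (left) and signalling genes (right) that were called at either concentration; points are limma estimates with standard errors, open circles were not called, and triangles are bounds. FLRT3, NTNG1, BOC and VAV3 show bounds far below 0 at 80 nM, and MICAL1 and DPYSL2 lie highest.

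Markers of several cell types moved beside the guidance genes. Of 12 neuron markers 7 were tested, and at 80 nM MAP2 (at least 25.4-fold lower), TUBB3, ELAVL3 and NEFL were lower and INA was higher. The summed level of the neuron list on a linear scale ranged from 5.62 to 5.88 untreated, from 6.34 to 8.38 at 8 nM and from 6.41 to 6.57 at 80 nM. Such a sum mostly follows the brightest probe, here INA (level 1.62 untreated and 2.45 at 80 nM), and is not an amount of RNA. Of 6 fibroblast markers 5 were tested, with PDGFRA (-6.51) and DCN (-1.40) lower and COL3A1 (2.08) higher at 80 nM. Summed levels lay between 18.9 and 19.7 untreated, 19.4 and 22.2 at 8 nM, and 19.2 and 19.4 at 80 nM. The brightest probe of this list was THY1 (level 3.83 untreated and 4.01 at 80 nM). Of the ovarian, mesenchymal and leukocyte lists, EPCAM (-0.93) and CDH2 (-2.33) were lower, CD68 (1.25) was higher and CLDN4, above background on no untreated array, was at least 2.05-fold higher at 80 nM. At 8 nM the markers called were EPCAM (0.90), ELAVL3 (1.00), INA (0.60) and COL3A1 (0.64), all higher, and ESR1 (-0.58), lower. The part of these markers in the changes of the guidance genes was not tested. Of 5 endothelial markers, CDH5 was above background on all 9 arrays, VWF on 1 untreated and 2 80 nM arrays, and PECAM1, KDR and TEK on no array.

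With all arrays scaled to the 10 spike-in probes in place of the 75th percentile, the median log2 change over all tested genes moved from 0.08 to -0.20 at 80 nM. The share of calls that were lower then rose from 46.7% to 73.4% over all genes and from 50% to 68.2% over the members (7 higher and 15 lower). EFNB1, NTN5, SEMA4F, UNC50 and UNC5A were no longer called higher at 80 nM under that scaling, and no member called in the main fit changed direction. The median log2 change of the tested members at 80 nM moved from 0.21 to -0.07, so some members that were not called changed sign. At 8 nM it removed the calls of PLXNB1, PLXNB2 and NTN5. Normexp correction and the authors' values each removed the calls of PLXNB1 and NTN5 at 8 nM and of NTN5 and PLXNA1 at 80 nM, and the authors' values that of SEMA4C. Between the concentrations, normexp correction removed the calls of EPHA10, PLXNA4, ROBO2, SEMA3G, SEMA4C and UNC5A, and spike-in scaling those of PLXNA4, UNC50, UNC5A and UNC5B.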

How the data were processed

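RNA from 3 untreated A2780 cultures, 3 given 8 nM and 3 given 80 nM DIG-MSK for 24 h was measured on 1-colour Agilent arrays. The authors scanned the arrays and ran Agilent Feature Extraction 10.7.3.1, whose processed intensity, as deposited, has the background of each spot taken off and no scaling between arrays. The authors also deposited log2 values, which track the log2 median signal (correlation 0.9986 to 0.9998) with nearly equal quantiles on every array; these were used as an alternative.

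Control and outlier spots were left out, spots of a probe were averaged, and the 75th percentile of each array was subtracted on the log2 scale. A probe had to be well above background on every array of 1 or more groups (26457 probes were), and the brightest probe stood for a gene. Names came from RefSeq genes (GRCh38.p14), which named 25715 of the 27245 probes with a RefSeq accession. Groups were compared in R 4.3.3 with limma 3.58.1 over all 9 arrays, with Benjamini-Hochberg adjustment over 21832 genes, and the procedure was tested on simulated data. For a gene above background on no array of a group, the mean of the brighter group was set against, per array, the higher of the dim probe and the lowest signal well above background. No gene spot was saturated (0).

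The named members are all those called in a comparison, with EFNB1 and SEMA3B, members whose probes disagree and the ligands or receptors of named members. Members and lists were chosen with earlier results of these data known. The alternatives were normexp background correction (offset 50), quantile, median and spike-in scaling, the authors' values, other filters, other probe rules, other call rules, only the groups compared, the replicate number as a block, and each array left out. Same-numbered untreated and 8 nM arrays deviated together (correlations 0.11, 0.10 and 0.16), whereas those with 80 nM did not (-0.12 to 0.02). Differently numbered 8 nM and 80 nM arrays ranged from -0.14 to 0.13, so correlations of this size do not by themselves show pairing. The main fits used no pairs, and pairing by replicate number entered only as an alternative. A block fitted to the untreated and 8 nM arrays alone was added after seeing the data.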

Additional observations from a re-analysis of the deposited data

Results flagged for a closer look

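NTN1 was called higher at 8 nM and lower at 80 nM than untreated. The test of the difference between the concentrations gave a fitted log2 value of -4.01 (80 nM minus 8 nM, adjusted p = 7.9e-08 from limma). This corresponds to a bound of at least 4.47-fold, since NTN1 was above background on no 80 nM array. Only 1 untreated array had it above background. The call at 80 nM against untreated was lost with normexp correction (-0.24) and with the authors' values.

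EPHA5-AS1, an antisense transcript of the EPHA5 locus that the rule does not take, was well above background on 9 of 9 arrays. It read -2.24, -2.36 and -2.49 untreated, -2.20, -1.72 and -2.26 at 8 nM, and -0.49, -0.33 and -0.43 at 80 nM. At 80 nM EPHA5-AS1 was higher by a log2 change of 1.95 (SE 0.15, adjusted p = 1.0e-05 by limma), and the change at 8 nM, 0.31, did not pass (adjusted p = 0.20). EPHA5 itself was above background on 1 untreated array, on 0 arrays at 8 nM and on 3 at 80 nM, and the RNA that each probe detects was not tested further.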

How the results depend on the processing

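Of the 55 calls of named members in the 3 comparisons, 35 were made under every alternative that tested the gene, and none of the 55 reversed direction. The filter on all 9 arrays does not test members that were dim on any array, and for these it was not counted. The other call rules were not counted either. Losses came mostly from normexp correction, spike-in scaling and the authors' values. With spike-in scaling, members called higher numbered 4 at 8 nM, 7 at 80 nM and 6 for 80 nM against 8 nM. With a filter on all 9 arrays, which tests 36 members, 4 were lower at 80 nM, and 6 were higher and 6 lower for 80 nM against 8 nM. Without the fold limit, 11 were higher at 8 nM. By the methods' unadjusted rule, 1 was lower at 8 nM. Leaving out 1 array gave between 6 and 10 higher and 0 lower at 8 nM, 12 to 14 higher and 11 to 13 lower at 80 nM, and 10 higher with 14 to 15 lower between the concentrations. At 8 nM, 10 were higher without 8 nM replicate 1, when EFNA1, EPHB3 and SEMA3F were added. With the replicate number as a block on all arrays the counts were 7 and 0, 12 and 12, and 10 and 14. With the pairing of the untreated and 8 nM arrays alone, 6 were higher at 8 nM, without NTN5. The same arrays fitted without a block also gave 6 higher, again without NTN5, so the block itself changed no call of a member. SEMA4C was not called for 80 nM against 8 nM without 8 nM replicate 2 (-0.53). The cause of these differences was not tested. The plot of levels by array shows which members sit near background, where bounds replace folds. All 80 nM arrays share a slide that holds no other group, so no setting separates slide from concentration.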

Other observations

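Of the tested members, 10 had more than 1 probe well above background. At 80 nM against untreated, both probes were called, in the same direction, for 3 of them (EPHA7, NRP1 and ROBO2). For another 3 (SEMA4D, SEMA4F and SEMA6B) only the brighter probe was called, and for the remaining 4 (EPHB4, PLXNB2, SEMA4B and SEMA6C) neither was. The fainter PLXNB2 probe gave 0.40 at 80 nM beside 0.45 for the brighter one.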
